A study of Mus musculus with 21 samples.

Results

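Erythroid cells and myeloid cells of the same organ were compared: CD45-Ter119+CD71+ cells against CD11b+Gr1+ myeloid-derived suppressor cells (MDSC), both sorted from the spleens of tumor-bearing C57BL/6 mice. The libraries were chosen by their labels alone and number 6 of the 21 in the series, 3 in each group. Of 14265 gene symbols in the expression table, 9425 reached a value of 1 in at least 3 of the 6 libraries and were tested. The other 15 libraries hold Ter119+CD71+ cells that are CD45+ (tumor-bearing mice) or of both CD45 fractions (anemia and neonatal mice), with 3 libraries for each. The tumor, the age of the animals and any pooling of animals are not given in the sources used here. The labels do not divide the MDSC into granulocytic and monocytic cells, and nothing says whether the 3 libraries of a group came from separate animals, so each p-value is set against a spread that may be technical only.

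Ter119 is a surface antigen of erythroid cells from the precursor stages to the red cell, and CD71, encoded by Tfrc, is the transferrin receptor through which iron enters precursors that make haemoglobin. CD45, the leukocyte phosphatase encoded by Ptprc, is lost as erythroid cells mature, so the CD45- fraction holds erythroid precursors that fill with haemoglobin, rebuild their membrane on a spectrin skeleton and discard their organelles. Spleen is an organ of stress erythropoiesis in the mouse. MDSC are immature myeloid cells that expand in tumor-bearing animals, and CD11b, encoded by Itgam, with Gr1, which is carried by Ly6G and Ly6C, marks neutrophil-like and monocyte-like cells alike. Granulocytes are built in steps, with the proteins of the primary granule made first and those of the secondary and tertiary granules later.

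Levels are given after unlogging the deposited values, whose scale is not given in the sources used here, so they are compared between libraries and not between genes. Values are given for replicates 1, 2 and 3 in that order, and differences are log2(value + 1) of CD45- cells minus MDSC, with the standard error (SE) of limma's moderated fit and n = 3 in each group. A gene is called where its Benjamini-Hochberg adjusted p over the 9425 genes is below 0.05. The 6 libraries summed to between 255954 and 349254 and had a value for 12289 to 13251 genes, and read depth is unknown. Pearson correlations across genes, which are not independent replicates, were 0.931 to 0.970 within a group and 0.405 to 0.471 between the groups. Of the summed values, haemoglobin genes held 46.3%, 33.8% and 20.8% in CD45- cells but 0.487%, 0.198% and 0.0264% in MDSC. Genes of the mitochondrial genome held 0.000189%, 1.23e-07% and 0.520% in CD45- cells and 0.0945%, 0.0951% and 0.0678% in MDSC. CD45- replicate 3 thus stood apart from its group there too, and the source of that difference was not tested. In bulk libraries, fewer cells of a type and less RNA per cell cannot be told apart.

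The sort antigens followed the labels. Ptprc stood at 1.23, 1.35 and 2.96 in CD45- cells and at 143, 185 and 222 in MDSC. Itgam was at 0.139, 0.103 and 0.0270 in CD45- cells against 197, 269.6 and 252 in MDSC. Tfrc was at 598, 924 and 1495 in CD45- cells and 54.3, 36 and 47.5 in MDSC. No library of one group entered the range of the other for these 3 genes, and all were called, with differences of -6.04 ± 0.29, -7.77 ± 0.22 and 4.34 ± 0.35. Ly6g, the granulocytic part of Gr1, was at 0.0725, 0 and 0 against 8.33, 7.81 and 37.8, with MDSC replicate 3 the highest. Ly6c2, the part shared by monocytes and granulocytes and a near-identical copy of Ly6c1 whose reads could be split between the copies, was at 0.0734, 0.102 and 0.0589 against 95.3, 116 and 142.

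**Figure D1:**
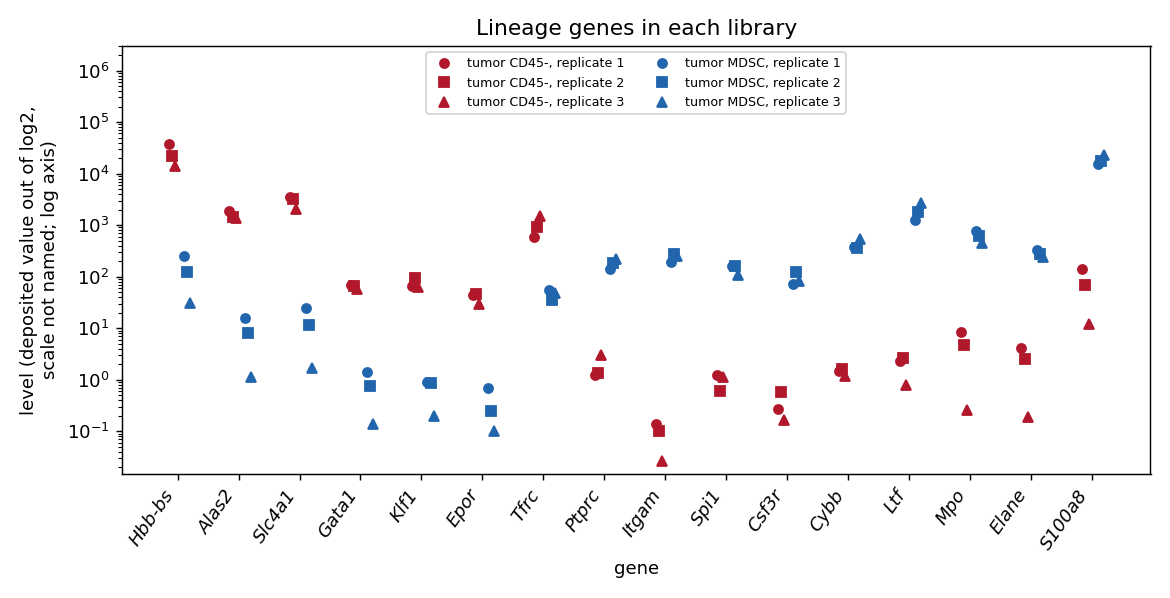
Level of 16 lineage genes in each of the 6 libraries, as deposited values taken out of log2 on a log axis, with red symbols for tumor CD45- cells and blue for tumor MDSC and a symbol shape for each replicate. The red and blue points do not overlap for any gene, and replicate 3 (triangles) is the lowest of its group for the erythroid genes other than Tfrc in MDSC and for Mpo, Elane, Ltf and S100a8 in CD45- cells.

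Between the groups 5658 of 9425 genes were called, which is 60.0%. MDSC held 4160 of the higher values, or 44.1% of genes tested, and CD45- cells 1498, or 15.9%. The 3 libraries of one group did not overlap those of the other for 6129 genes, or 65.0%, with 18.4% higher in CD45- cells and 46.7% higher in MDSC. Differences of at least 8-fold numbered 257 genes (2.73%) higher in CD45- cells and 913 (9.69%) higher in MDSC, and those of at least 32-fold numbered 83 and 222. The balance of directions depended on how libraries were scaled. The median difference over all genes was -0.56 with no scaling, and 1498 against 4160 genes were called higher in CD45- cells and in MDSC. The counts were 2788 against 3092 with a median of 0.02 after median-ratio scaling, 3113 against 2666 with a median of 0.14 after quantile normalization, and 2299 against 3166 with a median of -0.13 when haemoglobin genes were dropped and libraries set to the same sum. The gene groups below are therefore read against a median of -0.56 and shares of 15.9% and 44.1%, and calls of small differences can depend on scaling. A listed gene that is low in one group entered the test only through the other, so counts over tested genes are descriptions.

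**Figure D2:**
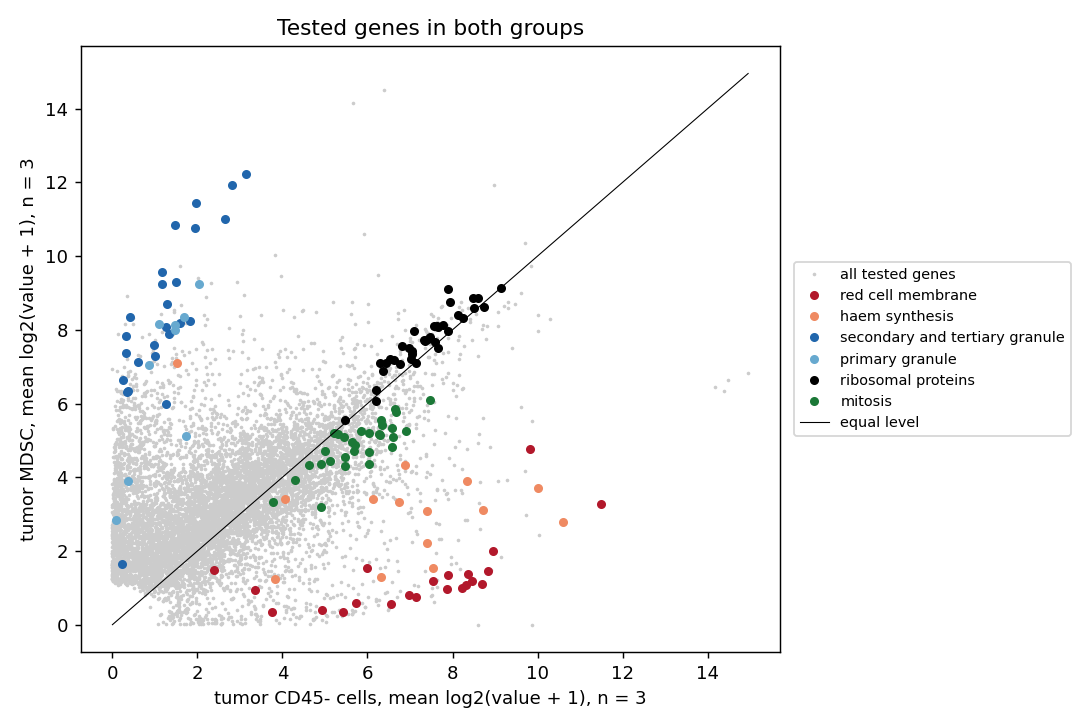
Mean log2(value + 1) over the 3 tumor CD45- libraries (x axis) and the 3 tumor MDSC libraries (y axis) for the 9425 genes tested, with 6 gene lists in colour and a line of equal level. Red cell membrane and haem synthesis genes lie at the lower right with Alas1 as the exception, granule genes at the upper left, ribosomal protein genes near the line and mitosis genes on or mostly below it.

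The CD45- cells were led by haemoglobin. The 4 adult globin genes measured, Hba-a1, Hba-a2, Hbb-bs and Hbb-bt, which encode the alpha and beta chains, were all higher in CD45- cells, with a median difference of 7.94. Hba-a1 was at 56265, 35002 and 16236 in CD45- cells against 458, 206 and 14.8 in MDSC. Hbb-bs was at 37759, 21956 and 14209 against 257, 121 and 31. In both groups replicate 1 was the highest and replicate 3 the lowest, and the groups stayed far apart, with differences of 8.12 ± 1.11 (adjusted p = 0.00025) and 7.82 ± 0.71 (adjusted p = 2e-05). The members of each pair are near-identical copies, so the division of reads between Hba-a1 and Hba-a2 and between Hbb-bs and Hbb-bt is uncertain. Of 6 embryonic and minor globins only the near-identical theta genes Hbq1a and Hbq1b were tested, and both were higher in CD45- cells (4.94 ± 0.44 and 5.46 ± 0.40). Hbb-y, the embryonic epsilon-like chain, was at 1.67, 1.27 and 0.281 in CD45- cells and was listed at 0 in the 3 MDSC libraries, as were Hba-x, Hbb-bh1 and Hbb-bh2.

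Haem synthesis moved with the globins. Of 14 genes, 13 were higher in CD45- cells and 1 was higher in MDSC, with a median of 4.37. Alas2, the erythroid form of the first and rate-limiting enzyme, was at 1872, 1409.5 and 1389.7 in CD45- cells against 15.6, 8.08 and 1.14 in MDSC. Alas1, the form used outside the erythroid lineage, ran the other way at 2.26, 1.67 and 1.76 against 143, 154 and 116. The groups did not overlap for either isozyme, and the differences were 7.81 ± 0.64 and -5.58 ± 0.21 (adjusted p = 1e-05 and 4e-07). Further along the pathway, Alad was higher in CD45- cells by 5.99 ± 0.42 and Fech, which places the iron in the ring, by 5.59 ± 0.30. The smallest difference among the 13 was that of Clpx, the mitochondrial unfoldase that acts on the first enzyme, at 0.66, which did not pass without CD45- replicate 2, MDSC replicate 1 or MDSC replicate 2.

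Iron handling divided between the cell types. Of 19 genes, 6 were higher in CD45- cells, 7 in MDSC and 6 did not pass, with a median of -0.33 that became 0.37 after median-ratio scaling and 0.19 without haemoglobin genes. Slc25a37 (mitoferrin 1), which brings iron into erythroid mitochondria, was at 974, 858 and 281 against 21.7, 15.4 and 8.29. Slc11a2 (DMT1), which moves iron out of the endosome, was at 21, 19.4 and 23.4 against 1.52, 1.27 and 0.851, while its phagosomal relative Slc11a1 (Nramp1) was at 0.407, 0.391 and 1.60 against 16.1, 28.7 and 16.3. The endosomal reductase Steap3 was at 2.15, 3.76 and 13.1 against 0.753, 0.320 and 0.450, with CD45- replicate 3 the highest. Abcg2, an exporter of porphyrins, differed by 6.40 ± 0.28, and Fam132b, which encodes erythroferrone, by 4.73. On the MDSC side stood Lcn2, which binds siderophores, with Trf, Hfe, Hmox1, Slc25a28 and the iron exporter Slc40a1, whose call (-0.83) was lost when any single library other than CD45- replicate 3 was left out. The MDSC count was 4 after median-ratio scaling, where Hmox1 had a difference of -0.69 (adjusted p = 0.058) and Slc25a28 one of -0.69 (adjusted p = 0.089). Fth1, the heavy chain of ferritin, was at 365, 343 and 416 against 284, 393 and 357, overlapping ranges with a difference of 0.13 ± 0.24 (adjusted p = 0.67), and it passed as higher in CD45- cells after median-ratio scaling (0.85, adjusted p = 0.017).

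Genes of the red cell membrane were nearly all higher in CD45- cells. Of 22 genes tested, 21 were higher in CD45- cells, none was higher in MDSC and Xk did not pass, and the median was 6.38. Slc4a1 (band 3), the anion exchanger to which the skeleton is anchored, had the largest difference toward CD45- cells among the genes named, 8.23 ± 0.71, from 3559, 3191 and 2097 in CD45- cells to 24.9, 11.7 and 1.70 in MDSC. Sptb, the erythroid beta spectrin, was at 454, 443 and 354 against 2.82, 1.03 and 0.272. The CD45- libraries lay close together, and in MDSC Sptb was highest in replicate 1 and lowest in replicate 3. Ank1, the ankyrin that joins band 3 to spectrin, differed by 7.39 ± 0.44, Epb42 by 7.25, and Tmod1, which caps actin in the skeleton, by 5.99 ± 0.25. Blood group and transport proteins went the same way: Kel by 7.27 ± 0.32, Rhd by 6.89 and the urea transporter Slc14a1 by 5.14 ± 0.21. Among the 12 genes with the largest differences toward CD45- cells were also Tmcc2 at 1360.3, 972 and 875 against 10.4, 6.47 and 0.851 and Fam213a at 613, 493 and 579.7 against 4.70, 4.16 and 0.537.

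Erythroid transcription factors were less uniform. Of 23 tested, 14 were higher in CD45- cells, 3 were higher in MDSC and 6 did not pass, with a median of 1.61. Gata1, the factor on which erythroid maturation depends, was at 68.8, 66.3 and 57.6 against 1.43, 0.747 and 0.137. Klf1, which activates adult beta globin, was at 65.7, 92.6 and 62.8 against 0.899, 0.882 and 0.195. Sox6 was at 183, 203 and 179 against 1.06, 0.501 and 0.151. These 3, with Hemgn (6.66 ± 0.33), Zfpm1 (5.42 ± 0.35), which encodes the GATA1 cofactor FOG1, and Tal1 (4.96 ± 0.36), had no overlap between groups and were called under every alternative tried. On the MDSC side Myb, a factor of immature progenitors, differed by -2.18, Ikzf1 by -0.88 and Bach1, a haem-binding repressor, by -0.79, and 1 such call was left after median-ratio scaling, without haemoglobin genes, and without CD45- replicate 2, MDSC replicate 2 or MDSC replicate 3.

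Erythropoietin signalling was split. Of 14 genes, 4 were higher in CD45- cells, 8 in MDSC and 2 did not pass, with a median of -0.96. Epor, the receptor, was at 44.5, 46.5 and 29.3 against 0.701, 0.248 and 0.103, a difference of 4.92 ± 0.28 (adjusted p = 1.3e-06). Bcl2l1, the survival gene downstream of it, was at 123, 121 and 126 against 8.31, 7.29 and 6.16. Cish (2.68) and Pim1 (1.86) were the other 2 higher in CD45- cells. The kinase Jak2 overlapped between groups at 34.7, 20.7 and 25.1 against 19.9, 21.4 and 23.3 and did not pass (adjusted p = 0.34), but passed as higher in CD45- cells after median-ratio scaling (0.97, adjusted p = 0.029). Stat5a and Stat5b were higher in MDSC by 1.31 and 0.93. Stat5b lost its call after each of the 3 scalings (-0.26, adjusted p = 0.28, after median-ratio scaling) and Stat5a after quantile normalization (-0.44, adjusted p = 0.12). The phosphatase Ptpn6 and the kinase Lyn, which act in both lineages, differed by -5.50 and -5.21. The MDSC count of 8 became 5 after median-ratio scaling and 4 after quantile normalization.

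Genes of late erythroid maturation and of organelle clearance were nearly all on the erythroid side. Of 26 tested, 24 were higher in CD45- cells, Fundc1 was higher in MDSC and Wipi1 did not pass, with a median of 3.53. Bnip3l (Nix), the receptor through which reticulocytes remove mitochondria, was at 302, 216 and 211 against 17.4, 21.4 and 28.5. Ulk1, the kinase that starts autophagy, was at 127, 100.4 and 91.5 against 16, 18.5 and 14.2. Fundc1, another mitophagy receptor, differed by -1.77, so the receptors for removal of mitochondria did not share a direction. Trim58 and Trim10, erythroid ubiquitin ligases, differed by 5.23 ± 0.25 and 6.01 ± 0.32, and Xpo7, a nuclear exporter used in erythroid nuclear condensation, by 5.35 ± 0.19. The ubiquitin-conjugating enzymes Ube2o and Ube2l6 differed by 6.13 and 4.78.

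Of the 4 kinases that phosphorylate eIF2alpha, 1 was higher in CD45- cells. Eif2ak1, the haem-regulated inhibitor, was at 185, 145 and 169.7 against 14.7, 15.4 and 15.2. Eif2ak3, which responds to stress of the endoplasmic reticulum, was at 3.89, 2.25 and 4.01 against 14.8, 14.4 and 15.2, and Eif2ak2 and Eif2ak4 did not pass (adjusted p = 0.98 and 0.18). Ppp1r15a (GADD34), which reverses the phosphorylation, was at 649.9, 608 and 396 against 12.7, 12.3 and 17, a difference of 5.18 ± 0.26. Over the 12 genes tested of this response, 5 were higher in CD45- cells, 1 was higher in MDSC and 6 did not pass, with a median of 0.44, and the MDSC count was 2 without CD45- replicate 3.

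Antioxidant enzymes went in both directions. Of 21, 9 were higher in CD45- cells, 6 in MDSC and 6 did not pass, with a median of 0.41. Prdx2, the abundant peroxiredoxin of red cells, was at 946, 911 and 688 against 24.4, 18.4 and 11.1. Prdx5 was at 4.14, 2.04 and 5.02 against 254, 282 and 307. The 2 peroxiredoxins thus differed by 5.53 ± 0.30 and -5.95 ± 0.28. Cat (catalase) was higher in CD45- cells by 3.47 ± 0.21 and Gpx1 by 1.23 ± 0.23. G6pdx, which feeds NADPH to the system, was higher in MDSC, at 8.91, 10.3 and 11.6 against 309, 368 and 339.7, and the glutathione reductase Gsr differed by -3.71. Sod1 overlapped between the groups (82.8, 82.3 and 114 against 105, 60.5 and 51.5, adjusted p = 0.26) and passed as higher in CD45- cells after median-ratio scaling (1.13, adjusted p = 0.0044).

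Neutrophil granule genes had the list medians farthest toward MDSC. The 25 genes tested of 27 listed for the secondary and tertiary granules were higher in MDSC, with a median of -7.04, and so were the 9 tested of 11 listed for the primary granule, with a median of -6.53. The secondary and tertiary list is not of granule proteins alone, since it also holds Ltb4r1, Padi4 and the stefins. Ltf, which encodes lactoferrin, was at 2.32, 2.66 and 0.789 in CD45- cells against 1274, 1825 and 2662 in MDSC. Camp, the cathelicidin precursor, was at 5.23, 4.63 and 0.616 against 1855, 1331 and 2141. Ngp was at 13.7, 21.5 and 1.08 against 2882, 9999 and 3900.4. CD45- replicate 3 was the lowest of its group for all 3 genes, and the differences were -9.36 ± 0.36, -8.83 ± 0.49 and -9.09 ± 0.84 (adjusted p = 4e-07, 1.1e-06 and 2.4e-05). Chil3, a chitinase-like protein of neutrophils and macrophages, had the largest difference toward MDSC at -9.46 ± 0.60, with MDSC replicate 3 at 5540.2 and the other two at 2012 and 1879.9. Of the primary granule, Mpo (myeloperoxidase) was at 8.59, 4.79 and 0.260 against 783, 626 and 445. Elane (neutrophil elastase) was at 4.06, 2.50 and 0.185 against 329.6, 281 and 237. Prtn3 and Ctsg, related serine proteases of that granule, stood at 4.69, 4.67 and 0.0428 against 395, 512 and 173 and at 4.95, 2.48 and 0.0414 against 496, 246 and 138. In MDSC, Mpo, Elane and Ctsg were lowest in replicate 3, while Ltf was highest in it. The stefins Stfa1, Stfa2 and Stfa3 (-6.62, -6.82 and -6.52) are near-identical copies and their separate values are uncertain.

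Calcium-binding S100 proteins and annexins were higher in MDSC for all 16 genes tested, with a median of -4.48. S100a8 was at 139, 70.2 and 12 against 15127, 17354 and 23107. S100a9, its partner in calprotectin, was at 184, 187 and 16 against 18753, 20836 and 31552. The groups were apart by 8.50 and 8.11 on the log2 scale, and CD45- replicate 3 was again the lowest of its group. The share of this list in the summed values was 13.8%, 14.8% and 20.2% in MDSC and 0.110%, 0.110% and 0.0314% in CD45- cells. Anxa1, the annexin of the resolution of inflammation, differed by -8.37 ± 0.63, and the smallest difference of the list was that of Anxa7 at -0.55, which did not pass after any of the 3 scalings (0.15 after median-ratio scaling).

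The phagocyte NADPH oxidase, which makes superoxide, was higher in MDSC for 7 of 8 genes, with a median of -5.98. Cybb, its catalytic subunit, was at 1.45, 1.63 and 1.19 against 373, 357 and 539.8. Cyba, which forms the membrane complex with it, was at 3.29, 1.52 and 3.44 against 135, 159.5 and 114. The cytosolic subunit Ncf1 differed by -7.27 ± 0.34. Rap1a, a small GTPase that copurifies with the membrane complex and is made in many cells, did not pass (0.50, adjusted p = 0.065), and was called higher in CD45- cells after each of the 3 scalings and without MDSC replicate 3.

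Myeloid transcription factors were higher in MDSC for 24 of 26 genes tested (31 listed), with a median of -3.57, and Zeb2 and Runx1 did not pass. Spi1 (PU.1), which directs myeloid fate, was at 1.21, 0.615 and 1.14 against 158, 162 and 108. Gfi1, which acts in granulocyte maturation, was at 0.454, 0.367 and 0.291 against 17.7, 19.2 and 10.7, while its erythroid relative Gfi1b was at 45.7, 57.3 and 25.6 against 1.19, 0.900 and 0.386. Cebpb was at 113, 175 and 88.6 in MDSC and was listed at 0 in the 3 CD45- libraries, so no fold is given. Without it the median over 25 genes was -3.56. Cebpb is a gene of 1 exon, and such genes were often blank: of 63 single-exon genes that reached 10 in a library, 37 (58.7%) were blank in a library beside a value of at least 10 in another of the same group, against 2 of 5580 (0.0358%) genes with several exons. Cebpa was at 0.145, 0.312 and 0.257 in CD45- cells and listed at 0, 0 and 7.23 in MDSC, and Cebpd was listed at 0 in all MDSC libraries, so neither is read. Junb, another gene of 1 exon, was listed at 0, 31.7 and 0 in CD45- cells against 129, 177 and 171, a difference of -5.63 ± 1.35. Its call was lost without CD45- replicate 1 or 3 (-4.79 in both, adjusted p = 0.077 and 0.053), without replicate 3 of both groups (-4.74, adjusted p = 0.12) and at a pseudocount of 0.1 (adjusted p = 0.054). The immediate early genes Fos (-4.80 ± 0.34), Klf2 (-6.20 ± 0.33) and Nr4a1 (-4.14 ± 0.24) were higher in MDSC. Over the 17 tested immediate early genes, 11 were higher in MDSC, Btg2 was higher in CD45- cells and 5 did not pass, with a median of -2.81.

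Receptors for growth factors and chemoattractants were higher in MDSC for 25 of 28 genes, with a median of -2.94. The list also holds Il1rn, which is not a receptor. Csf3r, the receptor for G-CSF, was at 0.272, 0.566 and 0.168 against 73.6, 126 and 81.3. Csf2ra and Csf2rb, the chains of the GM-CSF receptor, differed by -5.53 ± 0.28 and -5.67 ± 0.24. Il1r2, the decoy receptor for interleukin 1, was at 0.642, 0.597 and 0.0599 against 238, 298 and 331. The groups were apart in every library for these genes. Ifnar2, a chain of the type I interferon receptor, was the 1 gene of the list higher in CD45- cells, by 0.73, and its partner Ifnar1 (called higher in CD45- cells after each of the 3 scalings) and the chemokine receptor Cxcr4 did not pass. Of the cytokine receptors, Epor and Csf3r ran in opposite directions.

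The 26 pattern recognition and Fc receptor genes tested, of 29 listed, were higher in MDSC, with a median of -4.54. Tlr2 was at 0.0925, 0.0991 and 0.183 against 8.80, 11.3 and 14.9. Tlr4, the receptor for lipopolysaccharide, was at 0.0850, 0.145 and 0.0212 against 2.72, 4.57 and 2.01. Lilr4b and Pirb, immunoglobulin-like receptors of myeloid cells, differed by -8.57 ± 0.38 and -6.72 ± 0.24, and near-identical neighbours make the value of each uncertain. Integrins and adhesion genes were higher in MDSC for 16 of 21 genes, with a median of -2.04. Itgb2, the partner of CD11b, was at 1.78, 1.46 and 2.19 against 258, 297 and 269. The 3 higher in CD45- cells were Itga4 (1.28) and Itgb1 (1.08), which form VLA-4 and hold erythroblasts to macrophages, and Itga2b (2.43), a megakaryocyte integrin also made in early erythroid cells.

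Monocyte and macrophage genes were mixed. Of 18 tested and 25 listed, 9 were higher in MDSC and 9 did not pass, with a median of -1.02. F13a1, found in monocytes, was at 1.15, 0.794 and 0.218 against 80.3, 63.5 and 89. Ccr2, the chemokine receptor of inflammatory monocytes, was at 0.0610, 0.160 and 0.0744 against 8.81, 1.74 and 12.3, with MDSC replicate 2 the lowest. Csf1r, the M-CSF receptor, was at 1.62, 1.35 and 5.47 against 12.6, 9.18 and 17.3. CD45- replicate 3 was the highest of its group for Csf1r, and also for Vcam1 (4.42, 5.65 and 23.7 against 33.2, 4.91 and 32.3) and Cd163 (0.614, 0.543 and 3.93 against 1.43, 0.114 and 2.23), genes of the splenic macrophages around which erythroblasts sit. Vcam1 did not pass, but was called higher in MDSC without MDSC replicate 2 (-1.81, adjusted p = 0.044), in which it was lowest. Of the 8 splenic macrophage genes, 3 were higher in MDSC and 5 did not pass (0 were called in the fit on 9 libraries, 1 after median-ratio scaling), and their summed level was 43.8, 46.1 and 108 in CD45- cells and 135, 92.2 and 127 in MDSC. The part of such cells in the results was not tested.

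Genes listed around the suppression of T cells were higher in MDSC for 18 of 19 genes tested (26 listed), with a median of -2.55, and Havcr2 did not pass. The list is not of mediators alone, since it also holds Cd80, Cd86, Stat3, Stat6 and Il4ra. Besides Arg1, the genes Ido1, Il10, Fasl, Pdcd1lg2, Pvr and Tgfb2 were not tested. Nos2, the inducible nitric oxide synthase, was at 0.0333, 0.0179 and 0 against 7.50, 10.7 and 8.18. Arg2, the mitochondrial arginase, was at 0, 0.0524 and 0 against 7.88, 13.9 and 10.6. Arg1, the arginase most used as a marker of these cells, was not tested because it stayed at 0.141, 0 and 0.0287 in CD45- cells and 0.0698, 0.0392 and 0.0509 in MDSC. Stat3 differed by -4.42 ± 0.21 and Lgals3 (galectin 3) by -6.68 ± 0.21. The differences of Cd274, which encodes PD-L1, and Tgfb1 were small at -0.78 and -0.67, and neither passed after any of the 3 scalings (0.25 for Cd274 after quantile normalization and 0.02 for Tgfb1 after median-ratio scaling). Cd274 stood at 0.637, 0.461 and 1.13 in CD45- cells against 2.02, 1.44 and 2.49 in MDSC, levels close to the pseudocount.

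Inflammatory cytokines and chemokines were higher in MDSC for 12 of 17 genes tested (23 listed), with a median of -2.21. Il1b was at 0.231, 0.00545 and 0.371 against 43.8, 61.9 and 81.9. Cxcl2, which attracts neutrophils, was at 0.411, 0.216 and 0 against 34.9, 97.5 and 125, and Tnf was at 0.10, 0.136 and 0.0781 against 7.17, 14.1 and 22.9. In MDSC all 3 were lowest in replicate 1 and highest in replicate 3. Ccl2 and Ccl4 were listed at 0 in the CD45- libraries, so their folds are not given. Of 15 NF-kB genes, 11 were higher in MDSC and 4 did not pass, with a median of -1.41, and 7 were called higher in MDSC after quantile normalization. Rel and Nfkb1 differed by -3.42 ± 0.21 and -3.08 ± 0.26, and Relb did not pass (6.42, 4.51 and 2.33 against 2.29, 3.25 and 2.71) except as higher in CD45- cells after quantile normalization, without CD45- replicate 3 or without replicate 3 of both groups. Of the genes that make lipid mediators, 9 of 11 were higher in MDSC, with a median of -2.32. Alox5 and Alox5ap, the first enzyme of leukotriene synthesis and its partner, stood at 0.691, 0.876 and 0.0404 against 75.9, 91.2 and 76.9 and at 2.61, 1.81 and 1.00 against 251, 324 and 639.

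**Figure D3:**
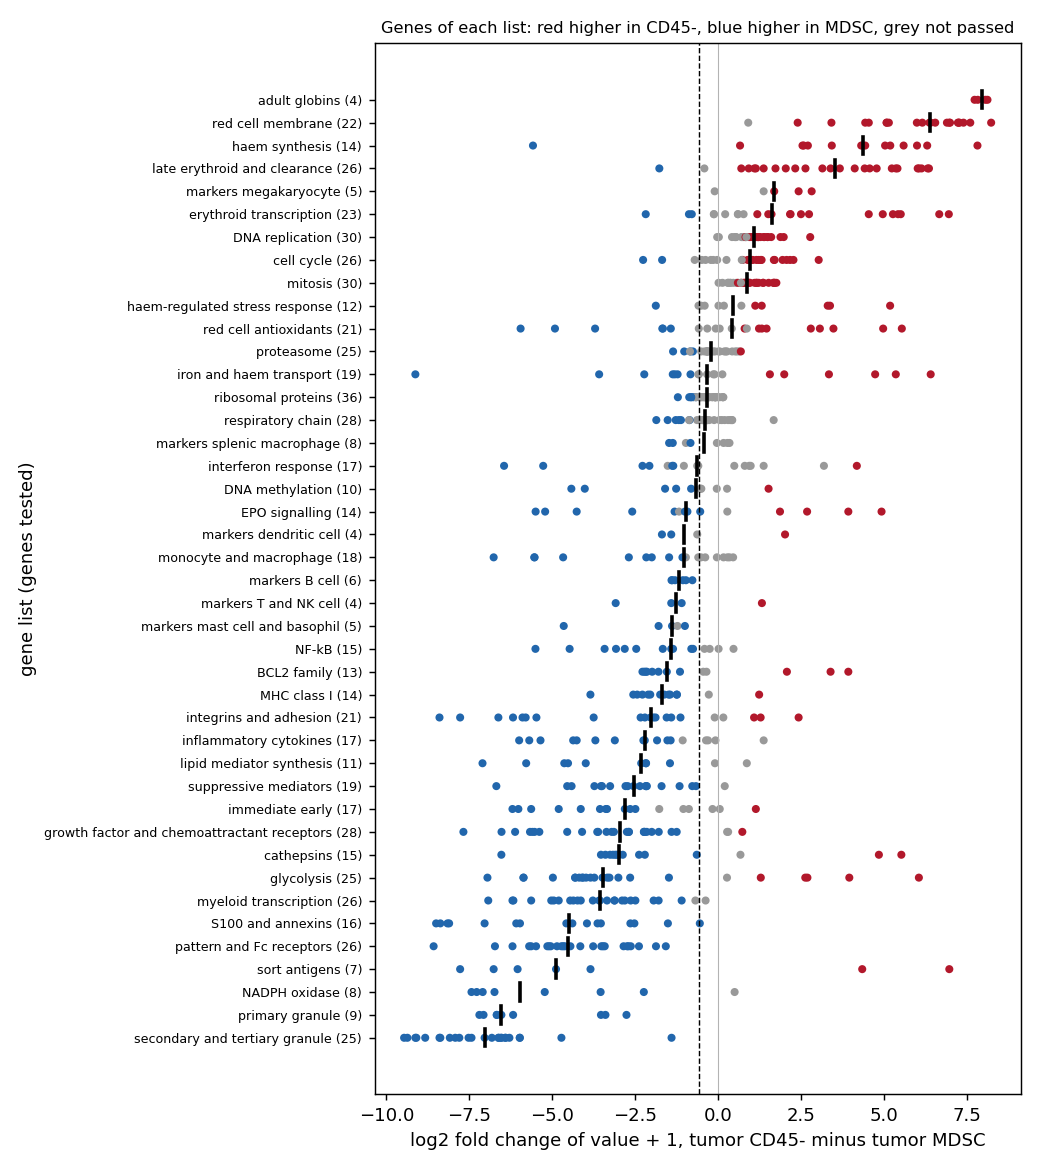
Log2 fold change of each tested gene (points) in the lists with at least 4 tested genes, tumor CD45- minus tumor MDSC, with the list median as a black bar, genes called higher in CD45- cells in red, in MDSC in blue and those that did not pass in grey. The dashed line is the median over all genes, -0.56, and the list medians run from -7.04 for secondary and tertiary granule genes to 7.94 for adult globins.

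Related genes of 1 family were also set side by side. A list of 20 pairs of related genes, each with a member known in erythroid cells and a member known in myeloid cells, gave opposite calls for 16 pairs. The count was 14 after median-ratio scaling, 14 after quantile normalization and 15 without haemoglobin genes. The pairs were chosen for a known difference between the lineages and with earlier results known, so the count describes these pairs alone. In glycolysis, Pklr, the pyruvate kinase of red cells and liver, was at 4.07, 7.47 and 19.3 against 1.07, 0.488 and 0.205, and Pkm, the form of most other tissues, was at 5.70, 4.62 and 2.22 against 673, 661 and 514. Bpgm, which makes the 2,3-bisphosphoglycerate that lowers the oxygen affinity of haemoglobin, was at 497, 278 and 454 against 7.06, 5.63 and 3.07. Hk1 and Hk3, 2 hexokinases, differed by 1.29 ± 0.30 and -5.87 ± 0.21. Of the 25 glycolytic genes tested, 5 were higher in CD45- cells (Hk1, Pfkm, Bpgm, Pklr and Slc16a1), 19 in MDSC and Eno3 did not pass, with a median of -3.48. In the membrane skeleton, the erythroid spectrin Sptb stood opposite Sptbn1 (-5.31 ± 0.22), and the adducins Add2 (6.15 ± 0.34) and Add3 (-3.32 ± 0.21) likewise. Ctse was higher in CD45- cells, at 473, 259.6 and 280.5 against 7.08, 6.06 and 5.30, and Ctsd in MDSC, at 27.3, 38.5 and 68 against 204, 255 and 207. Of the 15 genes of the cathepsin list tested, 2 were higher in CD45- cells (Ctse and Ctsf), 12 were higher in MDSC and Ctsb did not pass without scaling, with a median of -2.99. That list also holds the cystatins Cst3, Cstb and Cst7.

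Survival genes were also divided by form. Bcl2l1 (BCL-XL) differed by 3.92 ± 0.20, and Mcl1, on which granulocytes depend, was at 15.2, 19.1 and 19.4 against 75, 88.9 and 98.3. Of 13 genes of the BCL2 family tested, 3 were higher in CD45- cells (Bcl2l1, Bbc3 and Bnip3l), 8 in MDSC and 2 did not pass, with a median of -1.55. The exceptions among the pairs were few. Both glucose transporters were higher in MDSC: Slc2a1 (GLUT1) was at 0.127, 0.0899 and 0.156 against 12.2, 27.6 and 10.1 and Slc2a3 (GLUT3) at 2.67, 3.07 and 5.44 against 65.9, 83 and 133. Mature red cells of adult mice are known to lack GLUT1. The D-type cyclins Ccnd3 and Ccnd2 did not pass (adjusted p = 0.45 and 0.11), E2f2 was higher in CD45- cells (2.17 ± 0.45) with E2f3 not passing, and Alox15 was not tested. The call of Slc25a28 in MDSC was lost after median-ratio scaling and quantile normalization. That of Tmod3 was lost after each of the 3 scalings, with no filter on low values, without any single MDSC library (adjusted p = 0.055 to 0.098) and without replicate 3 of both groups. Ccnd2 was called higher in MDSC without CD45- replicate 3 (-0.96) or MDSC replicate 3 (-0.98).

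**Figure D4:**
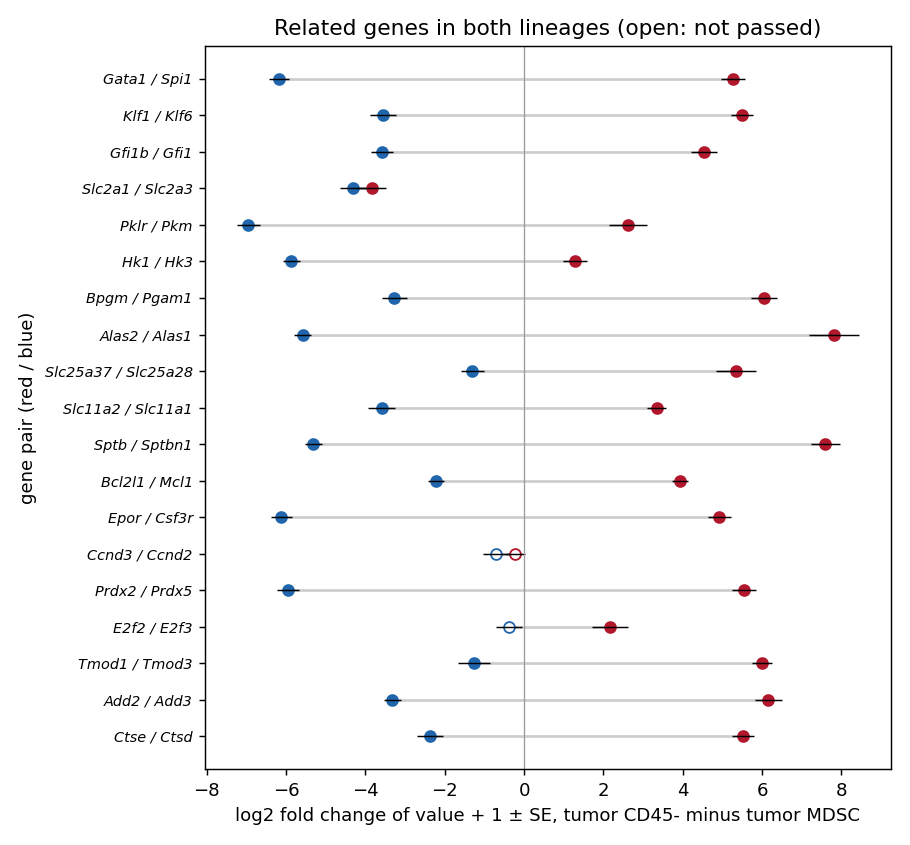
Log2 fold change ± SE, tumor CD45- minus tumor MDSC, of the member known in erythroid cells (red) and the member known in myeloid cells (blue) in the 19 pairs with both members tested, with open symbols for genes that did not pass. In 16 pairs the red symbol lies to the right of 0 and the blue to the left with both passing.

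Most listed genes of proliferation had values in both cell types, and many were higher in CD45- cells. Mki67, the proliferation antigen, was at 1225, 1058 and 864 against 248, 214 and 286. Orc1, which licenses replication origins, was at 29.8, 28.6 and 33.2 against 4.65, 3.13 and 3.17. Birc5 (survivin) was at 63, 65.2 and 64.8 against 19.3, 17.9 and 21. None of these overlapped between the groups, with differences of 2.06 ± 0.26, 2.77 ± 0.23 and 1.68 ± 0.19. Of 26 cell cycle genes tested, 16 were higher in CD45- cells, Cdk6 and Rbl2 were higher in MDSC (4 genes without CD45- replicate 3) and 8 did not pass, with a median of 0.97. Of 30 mitosis genes 21 were higher in CD45- cells and none in MDSC, with a median of 0.88. For cell cycle and mitosis genes, the CD45- counts were 18 and 30 after median-ratio scaling and 13 and 15 in the fit on 21 libraries. Of 30 DNA replication genes 19 were higher in CD45- cells and none in MDSC, with a median of 1.07. That last count was 29 after median-ratio scaling and 12 without MDSC replicate 2. Of the replicative helicase, Mcm4 was at 31.4, 45.3 and 115 against 35.5, 29 and 31.1, highest in CD45- replicate 3, and did not pass (adjusted p = 0.15), but was called higher in CD45- cells after each of the 3 scalings (1.03 to 1.47) and without CD45- replicate 1 (1.16, adjusted p = 0.027). Mcm3 passed at 0.94 ± 0.31 but not when replicate 2 or 3 of either group was left out (0.62, adjusted p = 0.051, without CD45- replicate 3). DNA replication genes made up 0.416%, 0.615% and 1.07% of the summed values in the CD45- libraries, so replicate 3 stood apart there. Cdk1 (0.89 ± 0.28) and Ccnb1 (0.93 ± 0.21) passed, but not in the fits on 9 or 21 libraries, Cdk1 also not without CD45- replicate 1 or MDSC replicate 2 or 3, and Plk1 did not pass (36.2, 35.6 and 44.3 against 44.7, 35.4 and 27.3) except as higher in CD45- cells after median-ratio scaling (0.83, adjusted p = 0.0095) or without haemoglobin genes (0.65, adjusted p = 0.043). Of 31 tested histone genes, 5 were higher in CD45- cells and none in MDSC, with a median of 0.69. The 5 are near the share over all tested genes, which was 15.9% for CD45- cells and 44.1% for MDSC. The share of all 46 histone genes in the summed values was 7.61%, 8.46% and 1.92% in CD45- cells and 3.11%, 2.80% and 1.52% in MDSC. Of the 31 tested histone genes, 9 were blank in at least 1 library, and blanks in the untested ones were not counted.

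Some genes were picked for a small difference. For 1844 genes, or 19.6%, the 95% interval of the difference lay within a 2-fold change either way, 40 of them ribosomal or mitochondrial. Among the others, Tpt1, Rbm3, Fth1, Eef2, Rbm39, Ddx5 and Eif4g2 were of those with the highest mean levels. Tpt1 was at 819, 798 and 1172 against 767, 729 and 1069.7, and Eef2, an elongation factor of translation, was at 297, 308 and 435 against 353, 344 and 252. Their ranges overlapped. After median-ratio scaling Tpt1 (0.84), Eef2 (0.85), Rbm39 (0.93) and Fth1 (0.85) passed as higher in CD45- cells. Of 36 ribosomal protein genes, 6 were higher in MDSC and 30 did not pass, with a median of -0.34, but after median-ratio scaling 11 were higher in CD45- cells and 1 in MDSC, with a median of 0.38. The direction also turned for 28 respiratory chain genes, of which 6 were higher in MDSC with a median of -0.40 and 8 were higher in CD45- cells with a median of 0.30 after that scaling. Of 25 proteasome genes 1 was higher in CD45- cells and 4 in MDSC, with a median of -0.20 that became 0.51 after that scaling, when 13 were higher in CD45- cells. Without CD45- replicate 3, the MDSC counts of these groups rose to 19, 11 and 7, and without other single libraries the ribosomal count fell as low as 1. No direction is therefore given for these 3 groups.

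Of 14 genes of antigen presentation by MHC class I, 12 were higher in MDSC at the RNA level, with a median of -1.68. H2-D1 was at 46.5, 43.2 and 67.2 against 248, 319.5 and 285. B2m, the light chain, was at 43.4, 57.3 and 118 against 151, 181 and 245, with CD45- replicate 3 the highest of its group, and after median-ratio scaling it did not pass (-0.78, adjusted p = 0.055). H2-T23, which encodes the Qa-1 molecule, was higher in CD45- cells at 60.3, 64.1 and 57.7 against 22.4, 26.7 and 26.7. Interferon response genes did not move together: of 17 tested, 1 was higher in CD45- cells, 6 in MDSC and 10 did not pass, with a median of -0.63 that became 0.26 after quantile normalization. Each of the 3 scalings gave 5 genes higher in CD45- cells, leaving out CD45- replicate 1, CD45- replicate 2 or MDSC replicate 3 gave 2, leaving out replicate 3 of both groups gave 4 and the fit on 21 libraries gave 2. Rsad2 (viperin) was at 30.7, 29.0 and 134.7 in CD45- cells against 1.10, 0.563 and 5.59 in MDSC, highest in replicate 3 of both groups. Ifitm1 was at 3.02, 3.00 and 0.230 against 262, 504 and 98.4, while Ifitm3 did not pass (9.34, 5.71 and 13.5 against 4.66, 6.27 and 3.59) but was called higher in CD45- cells after each of the 3 scalings and without CD45- replicate 2. Of 10 genes of DNA methylation, 5 were higher in MDSC (3 after each scaling, and 3 without CD45- replicate 1, MDSC replicate 1 or MDSC replicate 2), Uhrf1 was higher in CD45- cells (1.52 ± 0.20) and 4 did not pass. Tet2, which oxidises methylcytosine, was at 0.518, 0.560 and 0.598 against 34.9, 32.7 and 29.9, and the maintenance enzyme Dnmt1 overlapped between the groups (60.0, 63.1 and 83.1 against 62.9, 54.7 and 51.8). Dnmt1 did not pass, but was called higher in CD45- cells after median-ratio scaling (0.98, adjusted p = 0.0019) and without haemoglobin genes (0.80, adjusted p = 0.0097).

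Markers of other cells that a spleen sort could hold were measured in the same libraries. Of 13 B cell markers 6 were tested and called higher in MDSC, with values such as 0.648, 0.558 and 0.685 against 1.41, 1.66 and 2.38 for Cd79a, but the count was 0 after quantile normalization and 1 in the fit on 9 libraries. Their summed level over the list was 13.8, 9.31 and 32.2 in CD45- cells and 52, 40.3 and 52.5 in MDSC. Of 17 T and NK cell markers 4 were tested, with Lck higher in CD45- cells and 3 higher in MDSC, and Cd3e, Cd3d and Cd3g stayed at or below 1.25 in every library. Their summed level was 4.95, 5.96 and 3.52 in CD45- cells and 19.5, 19.7 and 15.9 in MDSC. Of 10 megakaryocyte markers 5 were tested and 3 were higher in CD45- cells, Itga2b, Ppbp and Vwf, the last at 12.9, 11 and 5.08 against 0.296, 0.524 and 0.458, and Ppbp did not pass without replicate 3 of both groups (adjusted p = 0.057). Pf4 was at 15.1, 1.87 and 1.67 against 1.53, 0.904 and 0.477, with CD45- replicate 1 above all other libraries. It did not pass except after quantile normalization (2.15, adjusted p = 0.025) or with replicate number as a block in the fit (1.37, adjusted p = 0.03). Of 10 mast cell and basophil markers 5 were tested and 4 were higher in MDSC, Hdc, Ms4a2, Mcpt8 and Kit (2 after quantile normalization, 3 after the other 2 scalings and 1 when genes needed a value in all 6 libraries), and their summed level was 1.72, 5.84 and 2.21 in CD45- cells and 38, 39.5 and 65.6 in MDSC. Of these, Hdc, also made in neutrophils, was at 0.0659, 0.319 and 0 against 12.8, 26.8 and 57.3. Dendritic cell markers were tested for 4 of 10 genes, and Flt3 and Itgax (not after quantile normalization) were higher in MDSC and Zbtb46 in CD45- cells. The part of such cells in the results was not tested.

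Each group carried a trace of the other's defining genes. Only listed genes called at least 8-fold lower in the group, with a mean of at least 10 in the other, were taken. Low percentages therefore follow from that choice and do not describe the whole lists. In the MDSC libraries the 4 adult globins stood at a median of 1.20%, 0.532% and 0.0711% of their mean in CD45- cells, and 20 membrane genes at 1.05%, 0.576% and 0.134%. The order of the 3 libraries was the same for both lists, and for 7 erythroid transcription factors, at 2.22%, 1.16% and 0.305%. The haem synthesis genes taken stood higher, at 2.62%, 1.88% and 1.18% over 9 genes, up to 10.8% for Ppox in replicate 2. Genes left out by the choice could stand closer. Mean levels in MDSC and CD45- cells were 19.4 and 125 for Tmem14c and 9.61 and 15.8 for Clpx. In CD45- cells, 8 primary granule genes stood at a median of 1.41%, 0.866% and 0.0552% of their mean in MDSC, and 24 secondary and tertiary granule genes at 0.349%, 0.385% and 0.0387%. Replicate 3 was again the lowest. NADPH oxidase genes gave 0.517%, 0.475% and 0.275% over 6 genes, and Rac2, a GTPase of blood cells, stood apart at 6.62%, 8.19% and 8.84%. Ctsc stood apart among the primary granule genes in the same way, with its highest share, 13.8%, in CD45- replicate 3. The source of these traces was not tested. Without replicate 3 of both groups, an alternative added after the data were seen, 1479 genes were higher in CD45- cells and 5025 in MDSC.

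**Figure D5:**
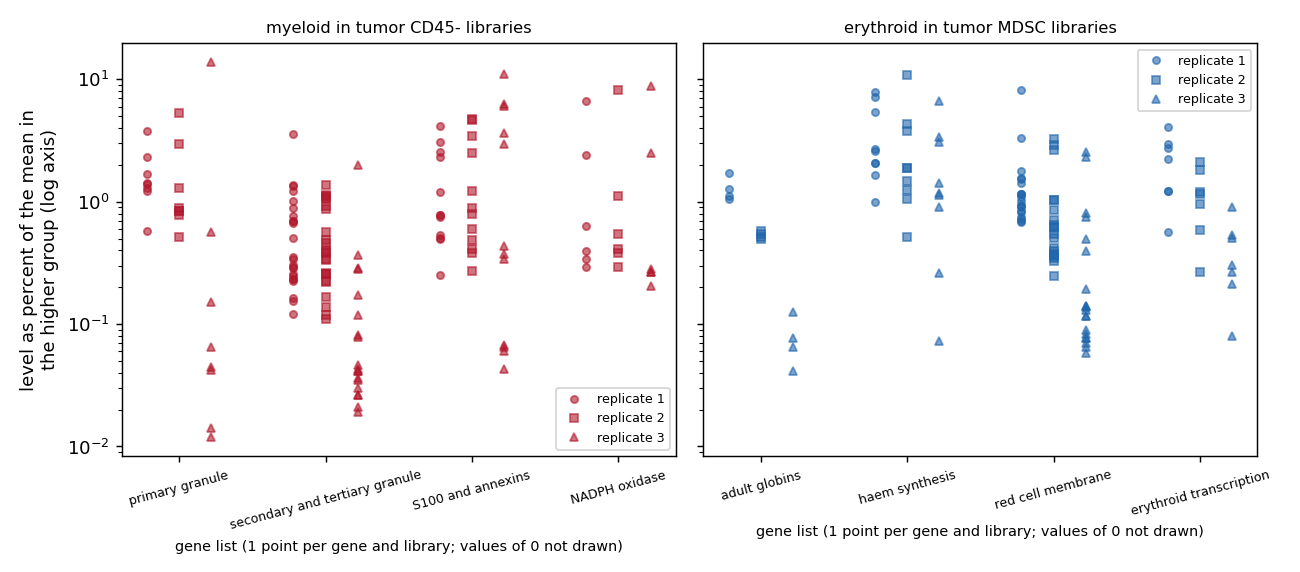
Level of lineage genes in the group where they are low, as a percent of their mean in the other group on a log axis, with 1 point for each gene and library, myeloid lists in tumor CD45- libraries at left and erythroid lists in tumor MDSC libraries at right. Only genes called at least 8-fold lower in the group shown, with a mean of at least 10 in the other, were taken. Replicate 3 (triangles) has the lowest medians in both panels, 0.0552% for primary granule genes and 0.0711% for adult globins.

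Promoter sequences of genes from both sides were compared for short motifs of lineage factors, because the genes of such factors, Gata1, Klf1 and Spi1 among them, differed between the groups. The window ran from 250 bases before to 50 bases after the start in RefSeq (GRCm38.p6), and both strands were searched. AGATAA, a form of the GATA site, was in 15.7% of 268 promoters of genes at least 8-fold higher in CD45- cells, in 6.45% of 977 promoters of genes at least 8-fold higher in MDSC and in 6.58% of 9461 promoters of all tested genes. GAGGAAG, a form of the PU.1 site, was in 7.09%, 21.6% and 13.7% of them. The C/EBP form TTGCNNAA was in 7.46%, 10.8% and 8.27%, and the KLF1 form CCACACCC in 4.10%, 5.83% and 3.86%. Over all 32851 promoters of the reference table the shares were 11.2%, 13.6%, 10.8% and 3.56% for the 4 motifs in that order. These shares are descriptions of letters in a window and carry no test, and 191 of the 257 genes and 714 of the 913 had a promoter in the table.

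The stretches before the start of 3 erythroid and 3 myeloid genes are shown because each holds at least 1 of these motifs, and they were chosen after the matches were seen. Of other genes looked at, Hba-a1, Sptb, Klf1, Gata1 and Cd177 held none of the motifs. The MDSC genes Ltf, S100a9 and Chil3 held the GATA letters, and Camp the KLF1 letters. S100a8, Anxa1, Retnlg, Mpo and Elane held PU.1 or C/EBP letters only, and Tmcc2 held the GATA letters at 1 of its starts. Capitals mark every match of the 4 motifs on either strand. Coordinates are on GRCm38.p6 and each sequence reads 5′ to 3′ on the strand of its gene.
Alas2, chrX:150547167-150547416, plus strand: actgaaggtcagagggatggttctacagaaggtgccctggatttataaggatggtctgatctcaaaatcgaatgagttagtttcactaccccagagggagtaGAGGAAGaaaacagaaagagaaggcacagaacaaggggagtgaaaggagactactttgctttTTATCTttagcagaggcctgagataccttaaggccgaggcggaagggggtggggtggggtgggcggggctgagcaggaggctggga
Hbb-bs, chr7:103827929-103828178, minus strand: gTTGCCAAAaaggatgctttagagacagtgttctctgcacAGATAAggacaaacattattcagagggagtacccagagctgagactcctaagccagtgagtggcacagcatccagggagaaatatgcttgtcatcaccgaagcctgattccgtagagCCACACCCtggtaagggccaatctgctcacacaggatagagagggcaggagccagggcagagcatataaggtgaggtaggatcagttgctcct
Kel, chr6:41704326-41704575, minus strand: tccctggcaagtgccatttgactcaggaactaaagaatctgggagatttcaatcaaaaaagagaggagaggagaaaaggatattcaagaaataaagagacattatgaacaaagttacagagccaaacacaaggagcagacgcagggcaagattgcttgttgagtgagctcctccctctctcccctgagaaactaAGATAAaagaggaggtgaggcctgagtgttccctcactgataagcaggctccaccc
Ngp, chr9:110419558-110419807, plus strand: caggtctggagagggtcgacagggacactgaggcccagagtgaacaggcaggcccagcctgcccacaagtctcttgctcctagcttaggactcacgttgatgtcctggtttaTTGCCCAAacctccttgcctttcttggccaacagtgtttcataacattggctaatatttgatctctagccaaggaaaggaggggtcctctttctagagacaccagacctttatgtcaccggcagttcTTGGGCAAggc
Lcn2, chr2:32387740-32387989, minus strand: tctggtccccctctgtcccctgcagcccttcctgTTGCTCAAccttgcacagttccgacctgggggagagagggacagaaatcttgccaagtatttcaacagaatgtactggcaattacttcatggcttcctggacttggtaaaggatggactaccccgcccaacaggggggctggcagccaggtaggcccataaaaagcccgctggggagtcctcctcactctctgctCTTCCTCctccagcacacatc
Csf3r, chr4:126024409-126024658, plus strand: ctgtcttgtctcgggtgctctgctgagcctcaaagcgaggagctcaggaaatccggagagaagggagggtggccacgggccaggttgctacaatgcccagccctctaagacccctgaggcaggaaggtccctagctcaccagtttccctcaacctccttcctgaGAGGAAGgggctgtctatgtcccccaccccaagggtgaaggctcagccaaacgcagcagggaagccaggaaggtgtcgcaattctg

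In the promoter of Alas2 the GATA letters, read on the opposite strand, began 86 bases before the start, and the window also held the PU.1 letters 148 bases before it. In that of Hbb-bs the KLF1 letters began 93 bases before the start and the GATA letters 210 bases before it. The Hbb-bs window also held the C/EBP letters, farther from the start than the GATA letters. In that of Kel the GATA letters began 56 bases before the start. The granule gene Ngp had the C/EBP letters at 138 and 11 bases before the start. Lcn2 had the C/EBP letters at 216 bases and the PU.1 letters, on the opposite strand, at 21 bases before it, and Csf3r had the PU.1 letters at 86 bases. A match is not evidence of binding. All 6 genes differed between the groups, from 6.12 on the log2 scale for Csf3r to 9.12 for Lcn2, and no value here measures binding.

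The levels of these genes in related groups of the series are given as a description. In CD45- cells from mice with anemia and from neonates, Gata1 was at 55 ± 3.06 in the first and 36.9 ± 9.45 in the second, and Epor at 50.6 ± 22.1 and 55.9 ± 8.10 (SD, n = 3 each). Slc2a1 was at 0.188 ± 0.168 in anemia and 13.2 ± 7.22 in neonates, with the 3 neonatal libraries from 5.43 to 19.6, above every tumor CD45- library. Mpo was at 0.0981 ± 0.0478 and S100a8 at 3.10 ± 0.603 in CD45- cells from mice with anemia, below the lowest tumor CD45- libraries. The CD45+ libraries of tumor-bearing mice had Gata1 at 7.11 ± 6.13, Spi1 at 73 ± 34.4 and Ltf at 687 ± 141, and the 3 libraries of that group lay widely apart for Gata1, from 2.21 to 14.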

How the data were processed

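RNA of 6 sorted spleen cell libraries was compared, 3 of tumor CD45- cells and 3 of tumor MDSC, in the authors' table of log2 expression values. Library preparation used a TruSeq kit on total RNA, per the labels' protocols, whose extraction text speaks of retinas although the tissue label is spleen. Alignment used Bowtie 0.12.2 and build mm8, per the submitters' processing notes, and the quantification tool, annotation and scale are not given in the sources used here. Of the cells of the table in these libraries, 8972 (10.5%) were blank and were taken as 0. Read counts are not given, so no counting interval is printed.

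Values were unlogged, and log2(value + 1) was fitted with limma 3.58.1 (R 4.3.3, trend and robust options, statmod 1.5.0) for genes reaching 1 in 3 or more libraries, two-sided, with Benjamini-Hochberg adjustment over 9425 genes and a threshold of 0.05. A fold change on this scale understates the change of low genes. No scaling was applied between libraries. Named genes were the 12 with the largest change in each direction (adjusted p below 0.05, no overlap, a higher group mean of 10 or more, no locus numbers or histones), in each list the first 4 and the 2 of smallest adjusted p, the genes of 20 pairs and 8 highly expressed genes whose interval lay within a 2-fold change. Some genes that the rule selects are not reported here. Genes outside this rule were named after their values were seen. The comparison, lists, pairs and rule were chosen with earlier results of these data known. Promoters came from RefSeq (GRCm38.p6) and exon numbers from GENCODE. The code was tested on simulated data with 200 genes changed in random directions and no difference in scale between libraries. That test therefore does not bear on the choice of scaling. Alternatives covered the pseudocount, filter, scaling, libraries of the fit, limma options, a replicate block and leaving out each library.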

Additional observations from a re-analysis of the deposited data

How the results depend on the processing

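Against 1498 genes higher in CD45- cells and 4160 higher in MDSC, the first count moved to 2788 after median-ratio scaling, 3113 after quantile normalization and 2299 with haemoglobin genes dropped, and the second to 2666 after quantile normalization. The change between these settings is the scaling itself, and which scaling is right was not tested. Other settings stayed within 1.5 times both counts. Leaving out each library in turn gave 1258 to 1563 and 3603 to 4751 genes. Whether replicate numbers pair the libraries is not given in the sources used here, and 3 libraries a group cannot settle it. Deviations of same-numbered libraries correlated at -0.04, 0.10 and 0.15, and those of differently numbered libraries at -0.16 to 0.10. A replicate block gave 1454 and 4011 genes and called Pf4 (adjusted p = 0.03). With that block, 4 interferon response genes were higher in CD45- cells against 1. Of 196 named genes that passed, 176 were called in the same direction under every alternative that tested them. Rps2 (0.66), Rps4x (0.63) and Psma3 (0.56) turned to higher in CD45- cells after median-ratio scaling, and Cd79a turned to 0.27 after quantile normalization. Of inflammatory cytokine genes, 7 were higher in MDSC when genes needed a value in all 6 libraries, since fewer were tested. Unknown depth, 3 libraries a group and blanks in single-exon genes limit low values most.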
